A study of Mus musculus with 16 samples.

Results

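The keratins and the small proline-rich proteins (SPRR) were examined in the mouse colon as 62 of the 39328 genes measured. The members were all genes whose identifier matched a mouse symbol of the form Krt or Sprr followed by a number, whatever their level. They comprised 47 keratins, 22 on chromosome 11 and 25 on chromosome 15, and 15 SPRR genes, all on chromosome 3. By the tissue in which each is usually found, the keratins were divided into 6 of simple epithelium, 19 of squamous epithelium, 20 of hair and its inner root sheath and 2 others, Krt42 and Krt222.

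Keratins are the intermediate filament proteins of epithelial cells. A type I and a type II keratin pair to build each filament, and desmosomes tie the filaments of neighbouring cells together. The colon lining is a simple epithelium whose filaments are made mainly of Krt8 with Krt18, Krt19 and, towards the surface, Krt20, while skin, mouth and anal canal are lined by squamous epithelium with other pairs such as Krt5 with Krt14. SPRR proteins are short, proline-rich precursors that transglutaminases cross-link into the cornified envelope of squamous cells, and several are also induced in injured simple epithelium.

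RNA-seq libraries were made from adult colon. All mice were ICR, which are outbred, and of wild-type genotype (WT in the labels). Birth was vaginal (VD) or by cesarean section (CS). For 8 days they drank normal water (the CON_VD and CON_CS groups) or 3% dextran sulfate sodium (DSS), a sulfated polysaccharide that injures the colon epithelium (DSS_VD and DSS_CS). Each group had 4 libraries; nothing in the labels says whether each is a separate mouse, so each p reflects the spread among these libraries, which may be technical. All values are FPKM as the authors deposited them, fragment numbers scaled to gene length and to the size of the library; being per length, they allow levels of different genes to be compared. Differences are of log2(FPKM + 1), which understates the change of genes near 0, with the standard error (SE) of the fit and a p from limma adjusted by Benjamini-Hochberg over all genes tested.

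The libraries resembled each other within groups, with correlations of log2(FPKM + 1) from 0.971 to 0.989 across genes. Epcam, a marker of all colon epithelial cells, ran from 618 to 756 FPKM in the 8 water libraries, from 317 to 716 in DSS_VD and from 91.9 to 312 in DSS_CS. All 10 colon epithelium markers were lower under DSS in CS mice, and 2 of 10 in VD mice. Over all genes tested 25.9% were lower in CS and 17% in VD mice, so the VD count is near the background. All 4 leukocyte markers were higher under DSS in both, where 34.4% of all genes tested were higher in CS and 24% in VD mice. In bulk tissue, fewer cells of a type and less RNA per cell cannot be told apart. Pbsn, a secretory protein of the prostate, stood at 185 FPKM in CON_CS replicate 1, 128 in DSS_CS replicate 3 and 1355 in DSS_CS replicate 4, and at 0.526 or less in the other 13 libraries. For comparisons that use CS mice, the counts of members called and many member differences are therefore also given without those 3 libraries. Sums and ratios of keratins, and the lists of other genes, are given with all libraries only. Of the members, Krt5, the basal type II keratin of squamous and glandular epithelium, had its highest values, 1.66 and 0.779 FPKM, in DSS_CS replicate 4 and CON_CS replicate 1.

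Of the 62 members, 26 reached a group mean of 1 FPKM in at least 1 group: all 6 simple keratins, 8 squamous keratins (Krt6a, Krt6b, Krt10, Krt12, Krt13, Krt14, Krt17 and Krt80), 4 hair keratins (Krt36, Krt84, Krt87 and Krt90) and 8 SPRR genes (Sprr1a, Sprr2a1, Sprr2a2, Sprr2a3, Sprr2b, Sprr2h, Sprr2i and Sprr2k). Another 30 stayed under that level in every group, and 6 (Krt33b, Krt42, Krt73, Krt74, Krt77 and Krt88) were listed at 0 in all 16 libraries. No library exceeded 2.20 FPKM for any of these 36 genes. The basal squamous keratins Krt5 and Krt15 and the epidermal keratins Krt1 and Krt2 were among them, whereas Krt14, the usual partner of Krt5, was not. Trp63, the transcription factor that marks squamous basal cells, was at 0.0793 FPKM or less in every library.

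The SPRR genes lie in a cluster on chromosome 3 between 92215799 and 92485895 (GRCm38). The annotated Sprr2a2 (92215920 to 92256724) overlaps Sprr2a1 (92215799 to 92221911). Promoters and coding sequences of SPRR genes are shown because the copies differ in both response and sequence. RefSeq holds a promoter window, 250 bases before to 50 after the start of transcription (build GRCm38.p6), for 42 of the 62 members, 12 of them SPRR genes. The AP-1 motif TGANTCA, whose reverse complement reads the same, lies in 9 of the 12 SPRR windows (75%), in 2 of 31 keratin windows (6.45%) and in 7.81% of all 32851 windows. In 7 Sprr2 genes the motif begins 193 to 198 bases before the start, and in 8 of the 9 genes it reads TGAGTCA. The 31 bases around the match, on the strand of the gene and with the motif in capitals, are as follows.
Sprr1a, chr3:92486009-92486039, minus strand: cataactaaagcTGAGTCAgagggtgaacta
Sprr1b, chr3:92438872-92438902, minus strand: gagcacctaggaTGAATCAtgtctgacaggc
Sprr2b, chr3:92316498-92316528, plus strand: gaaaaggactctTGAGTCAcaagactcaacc
Sprr2d, chr3:92338935-92338965, plus strand: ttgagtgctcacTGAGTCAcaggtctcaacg
Sprr2e, chr3:92351938-92351968, plus strand: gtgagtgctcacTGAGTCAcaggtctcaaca
Sprr2f, chr3:92364978-92365008, plus strand: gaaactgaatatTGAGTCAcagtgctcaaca
Sprr2h, chr3:92385475-92385505, plus strand: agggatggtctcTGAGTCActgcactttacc
Sprr2i, chr3:92407786-92407816, plus strand: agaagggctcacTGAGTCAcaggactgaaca
Sprr2k, chr3:92432374-92432404, plus strand: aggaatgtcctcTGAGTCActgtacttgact

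The motif occurs in 2 places in Sprr1a and in 2 in Sprr2k. The letters TATAAA, searched on the strand of the gene only, lie in 9 of 12 SPRR windows against 8.32% of all windows, 29 bases before the start in each of the 7 Sprr2 genes listed above. The 250 bases before the start are given for Sprr1a and Sprr2h, the SPRR genes with the smallest p, with AP-1 and TATAAA in capitals.
Sprr1a, chr3:92485882-92486131, minus strand: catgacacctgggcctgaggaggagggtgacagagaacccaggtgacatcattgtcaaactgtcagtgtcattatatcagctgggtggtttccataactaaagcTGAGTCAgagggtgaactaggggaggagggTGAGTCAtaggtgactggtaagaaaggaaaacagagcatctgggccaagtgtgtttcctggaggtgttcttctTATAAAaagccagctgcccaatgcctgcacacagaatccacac
Sprr2h, chr3:92385435-92385684, plus strand: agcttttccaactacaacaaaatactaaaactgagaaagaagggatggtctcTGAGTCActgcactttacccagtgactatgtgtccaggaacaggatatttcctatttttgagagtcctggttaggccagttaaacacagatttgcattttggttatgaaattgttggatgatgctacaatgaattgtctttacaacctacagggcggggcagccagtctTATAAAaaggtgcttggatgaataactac

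The windows of Sprr2a1, Sprr2a2 and Sprr2a3 hold neither TGANTCA nor TATAAA. In them the run accagcccattacaggg, the longest that Sprr2a1 and Sprr2a3 share with Sprr2b, begins 5, 5 and 33 bases after the start, whereas in Sprr2b it begins 80 bases before it, so the RefSeq start of the Sprr2a copies is placed at a different point of the shared sequence. A STAT motif, TTCNNNGAA, lies in 2 of 12 SPRR windows against 8.3% of all windows, and the interferon motif ISRE (GAAA, any 2 bases, GAAA) in none of 12 against 3.44%; both were searched on both strands. A match describes the letters and is not a binding site, and the absence of a match speaks only of this window.

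Sprr2a1 and Sprr2a2 have the same coding sequence of 249 bases, and 88.9% of the 100-base stretches of the Sprr2a1 transcript also occur in that of Sprr2a2. Their values were nearly equal in every library, with a ratio from 0.988 to 1.05, so what is given for either rests on 1 uncertain measurement. The table lists them as 2 genes and the counts keep both; taken as 1, the members tested were 20 in VD and 21 in CS mice instead of 21 and 22, and as neither copy was called there, the numbers called are the same. Sprr2a3 differs from Sprr2a1 at 3 of the 249 coding bases (98.8% identity) and shares 36.2% of its 100-base stretches with other members. How reads common to the 3 copies were assigned is not known, so the values of Sprr2a3 are uncertain as well. The coding sequences, from the GENCODE M21 transcripts, are given with the differing bases in capitals.
Sprr2a1: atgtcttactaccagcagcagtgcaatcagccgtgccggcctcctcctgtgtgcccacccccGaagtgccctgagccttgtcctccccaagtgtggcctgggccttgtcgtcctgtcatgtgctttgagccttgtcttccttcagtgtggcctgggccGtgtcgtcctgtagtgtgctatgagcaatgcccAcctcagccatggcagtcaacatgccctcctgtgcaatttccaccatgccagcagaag
Sprr2a3: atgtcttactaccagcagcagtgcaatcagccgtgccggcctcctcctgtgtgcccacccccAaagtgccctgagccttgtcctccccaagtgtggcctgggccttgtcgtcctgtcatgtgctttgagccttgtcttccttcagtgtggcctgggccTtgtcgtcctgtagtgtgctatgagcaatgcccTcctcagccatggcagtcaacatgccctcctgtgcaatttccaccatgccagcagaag

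**Figure D1:**
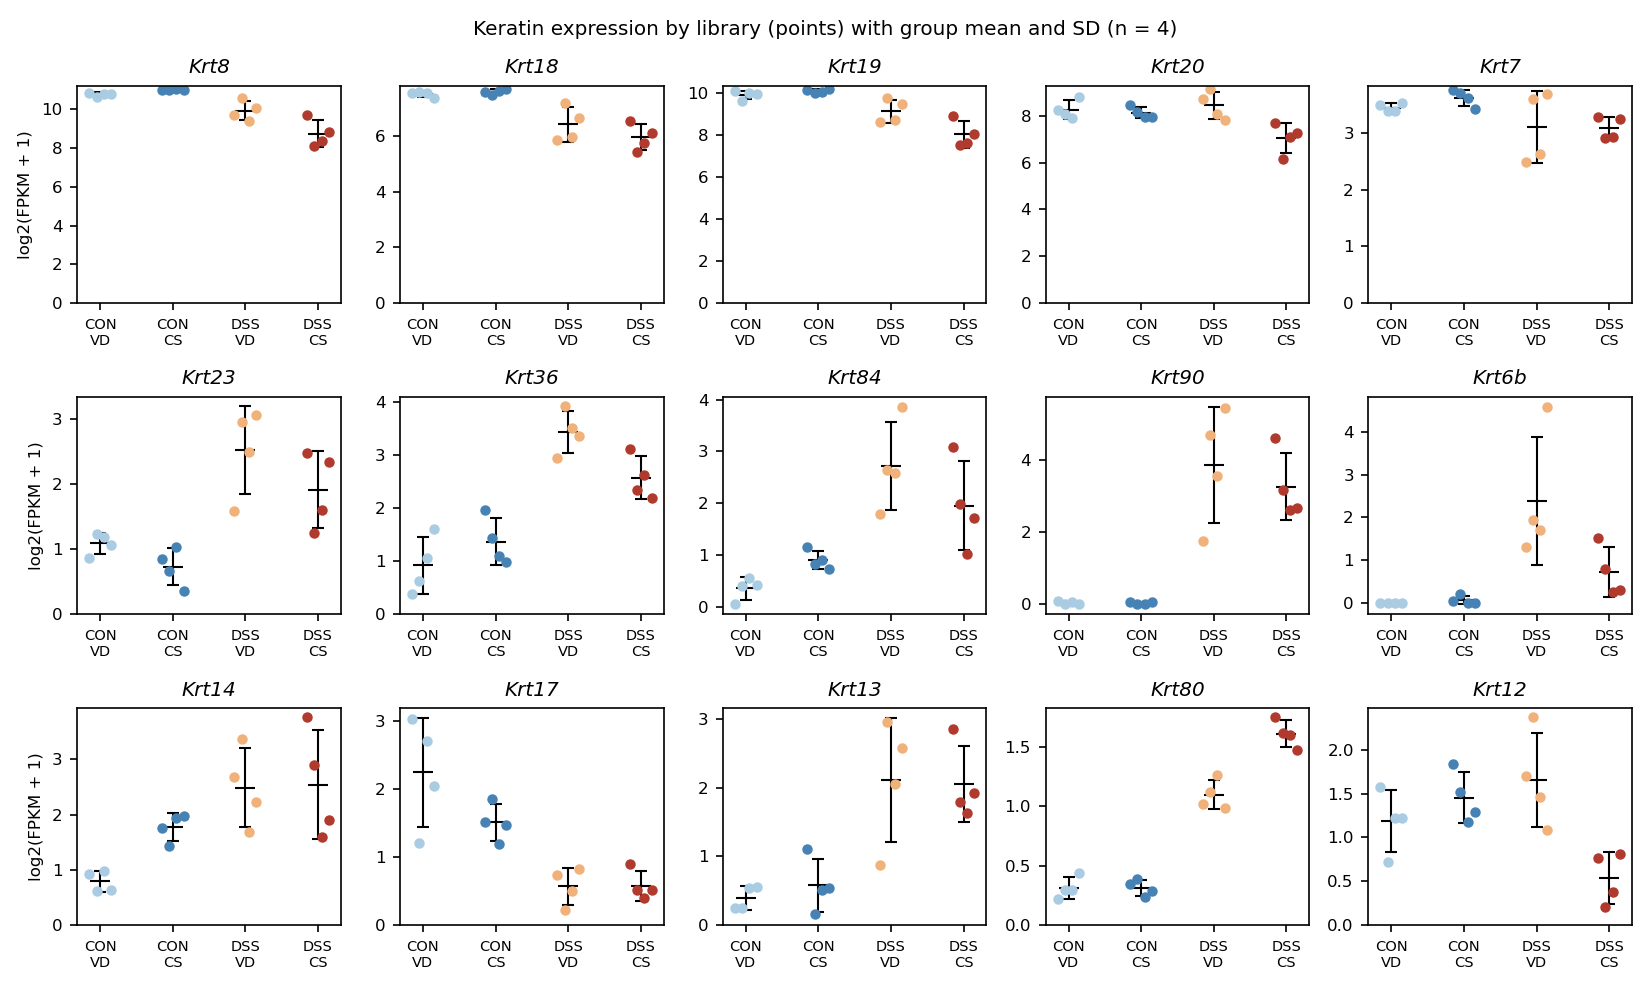
Log2(FPKM + 1) of 15 keratins in each of the 16 libraries, by group; each panel has its own vertical axis, points are libraries, and the horizontal bar and whiskers are the group mean and SD (n = 4). Krt8, Krt18 and Krt19 are lower in the DSS groups, whereas Krt23, Krt36, Krt84 and Krt90 are higher, from levels of 2.88 FPKM or less in water.

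Under DSS Krt8, Krt18 and Krt19, the main filament keratins of the colon, fell, while Krt23, Krt36, Krt84, Krt90, Sprr1a and Sprr2h, all below 4 FPKM in water, rose. In VD mice 21 members passed the filter of at least 1 FPKM in at least 4 of the 8 libraries compared, and 15 differed (10 higher, 5 lower); 40.9% of the 13933 genes tested differed in that comparison (24% higher and 17% lower). In CS mice 16 of 22 tested members differed (8 higher, 8 lower), against 60.3% of 14372 genes (34.4% higher and 25.9% lower). The water and DSS ranges did not overlap in 14 of the 21 members tested in VD mice and in 13 of the 22 in CS mice, against 38.6% and 57% of all genes tested. The 2 responses use no library in common. They shared 6 higher members (Krt23, Krt36, Krt84, Krt90, Sprr1a and Sprr2h), which are 60% of those higher in VD mice and 75% of those higher in CS mice. They shared 5 lower members (Krt8, Krt10, Krt17, Krt18 and Krt19), 100% of those lower in VD mice and 62.5% of those lower in CS mice. Some unshared calls could not be shared: Krt6b and Sprr2k were not tested in CS mice, nor Krt13 and Krt80 in VD mice. The share of calls common to both responses over all genes was not computed, so these percentages have no background. These counts do not describe all 62, since a member low in 1 group could pass the filter only through the group where it was high. In VD mice no water library of Krt6b, Krt14, Krt84, Krt90, Sprr2h and Sprr2k reached 1 FPKM, and no DSS library of Krt17. In CS mice no water library of Krt80, Krt90 and Sprr2h did, and no DSS library of Krt12 and Krt17. For these members meeting the filter already separated the ranges, so they enter the counts of ranges without overlap by construction. With 1 of the 4 DSS_VD libraries left out, 15 members were tested and 6 to 9 differed in VD mice (7 without replicate 1, 9 without replicate 2, 6 without replicate 3 and 9 without replicate 4). Without the 3 libraries with Pbsn, 12 members were tested in CS mice and 5 differed, 4 of them among the 16; of the 16, Krt12, Krt13, Krt17, Krt23, Krt80, Krt84, Krt90 and Sprr2h no longer met the filter.

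Krt8 (ENSMUSG00000049382, chr15:101996698-102004482), the type II keratin of simple epithelium, was the most abundant keratin in every group. Krt8 measured 1864, 1571, 1755 and 1779 FPKM in CON_VD, 2077, 2018, 2124 and 2045 in CON_CS, 837, 1526, 678 and 1061 in DSS_VD and 824, 271, 331 and 454 in DSS_CS (replicates 1 to 4). Every DSS library was below every water library, and replicate 2 of DSS_VD and replicate 1 of DSS_CS were the highest of their groups. Krt8 fell by 0.83 ± 0.25 (SE) on the log2 scale in VD mice (limma adjusted p = 0.0264) and by 2.27 ± 0.31 in CS mice (limma adjusted p = 0.000244), a 1.78-fold and a 4.82-fold decrease. In VD mice its adjusted p passed 0.05 without any 1 of the 4 CON_VD libraries and without DSS_VD replicate 1 or 3, reaching at most 0.0771. In CS mice the value without the 3 libraries with Pbsn was -2.12, with a limma adjusted p of 0.0175.

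Krt18 (ENSMUSG00000023043, chr15:102028180-102032027) and Krt19 (ENSMUSG00000020911, chr11:100140810-100148665), the type I keratins that pair with Krt8, were examined next. Krt18 measured 185, 189.6, 186 and 163 FPKM in CON_VD, 193, 176, 195 and 206 in CON_CS, 57.6, 146, 61.9 and 99.5 in DSS_VD and 91.8, 42.6, 52.8 and 68.96 in DSS_CS. Krt18 did not overlap between water and DSS in either kind of mouse, and fell by 1.08 ± 0.27 (SE) on the log2 scale in VD mice (limma adjusted p = 0.0115) and by 1.63 ± 0.21 in CS mice (limma adjusted p = 0.000176). Krt19 measured 1098, 798, 1008 and 983 FPKM in CON_VD, 1126, 1021, 1074 and 1169 in CON_CS, 389.5, 853, 420.2 and 699 in DSS_VD and 484, 180.2, 195 and 266 in DSS_CS. Replicate 2 of DSS_VD lay within the CON_VD range, and all DSS_CS libraries lay below all CON_CS libraries. Krt19 fell by 0.79 ± 0.27 on the log2 scale in VD mice (limma adjusted p = 0.0428) and by 2.08 ± 0.29 in CS mice (limma adjusted p = 0.000258). Without any 1 of the 4 CON_VD libraries, or without DSS_VD replicate 1 or 3, the adjusted p of Krt19 in VD mice was above the threshold, at most 0.117. In CS mice without the 3 libraries with Pbsn, the values were -1.60 for Krt18 (limma adjusted p = 0.0130) and -1.87 for Krt19 (limma adjusted p = 0.0182).

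Krt20 (ENSMUSG00000035775, chr11:99428403-99438150), a type I keratin of the surface epithelium, was not called in VD mice. Krt20 measured 301, 266, 237 and 450.4 FPKM in CON_VD, 353, 284, 248 and 243 in CON_CS, 422, 555, 269.9 and 227 in DSS_VD and 208, 70.5, 134 and 152 in DSS_CS. The VD groups overlapped, whereas all 4 DSS_CS libraries were below all CON_CS libraries. The log2 difference was 0.19 ± 0.31 (SE) in VD mice (limma adjusted p = 0.661), and Krt20 fell by 1.08 ± 0.30 in CS mice (limma adjusted p = 0.0125). The first value depended on 1 library, being -0.04 without DSS_VD replicate 2, and the second was -1.08 without the 3 libraries with Pbsn, with a limma adjusted p of 0.104. The ratio of Krt20 to Krt8 was 0.117 to 0.253 in the water libraries and 0.214 to 0.504 in the DSS libraries.

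Krt7, a type II keratin of ducts and glands, and Krt23, a type I keratin, were far less abundant. Krt7 measured 10.3, 9.52, 9.50 and 10.7 FPKM in CON_VD, 12.5, 12.05, 11.3 and 9.79 in CON_CS, 4.64, 11.2, 5.20 and 12.02 in DSS_VD and 8.77, 6.55, 6.64 and 8.51 in DSS_CS. Its VD groups overlapped, and Krt7 fell by 0.53 ± 0.12 (SE) on the log2 scale in CS mice (limma adjusted p = 0.00411; 0.0548 without the 3 libraries with Pbsn); the difference in VD mice was -0.35 ± 0.27 (limma adjusted p = 0.339). Krt23 measured 0.819, 1.34, 1.27 and 1.08 FPKM in CON_VD, 0.803, 0.582, 1.04 and 0.282 in CON_CS, 1.99, 6.68, 4.60 and 7.34 in DSS_VD and 4.52, 1.37, 2.03 and 4.04 in DSS_CS. All DSS libraries of each kind of mouse were above their water libraries, and Krt23 rose by 1.43 ± 0.29 in VD mice (limma adjusted p = 0.00396) and by 1.18 ± 0.28 in CS mice (limma adjusted p = 0.00546). Of the 6 simple keratins, 3 were lower and 1 higher in VD mice, and 5 were lower and 1 higher in CS mice. Their median log2 differences were -0.57 and -1.35, against 0.06 over all genes tested in either. Of all genes tested, 17% were lower and 24% higher in VD mice, and 25.9% lower and 34.4% higher in CS mice.

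The abundant keratins were set beside Epcam, and their ratios to it did not all move alike. The ratio of Krt8 to Epcam was 2.41 to 2.88 in CON_VD, 2.80 to 3.36 in CON_CS, 1.89 to 2.70 in DSS_VD and 2.48 to 2.95 in DSS_CS, while Epcam itself spanned from 91.9 to 756 FPKM. The ratio of Krt18 to Epcam was 0.245 to 0.291 in CON_VD, 0.256 to 0.313 in CON_CS, 0.130 to 0.253 in DSS_VD and 0.294 to 0.464 in DSS_CS. That of Krt20 to Epcam was 0.332 to 0.729 in water against 0.579 to 1.001 under DSS. The part of epithelial loss in these differences was not tested. Krt18 per Krt8 stood at 0.111, 0.157, 0.160 and 0.152 in DSS_CS, against 0.0688 to 0.121 in the other 12 libraries, so that replicate 1 lay within their range.

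**Figure D2:**
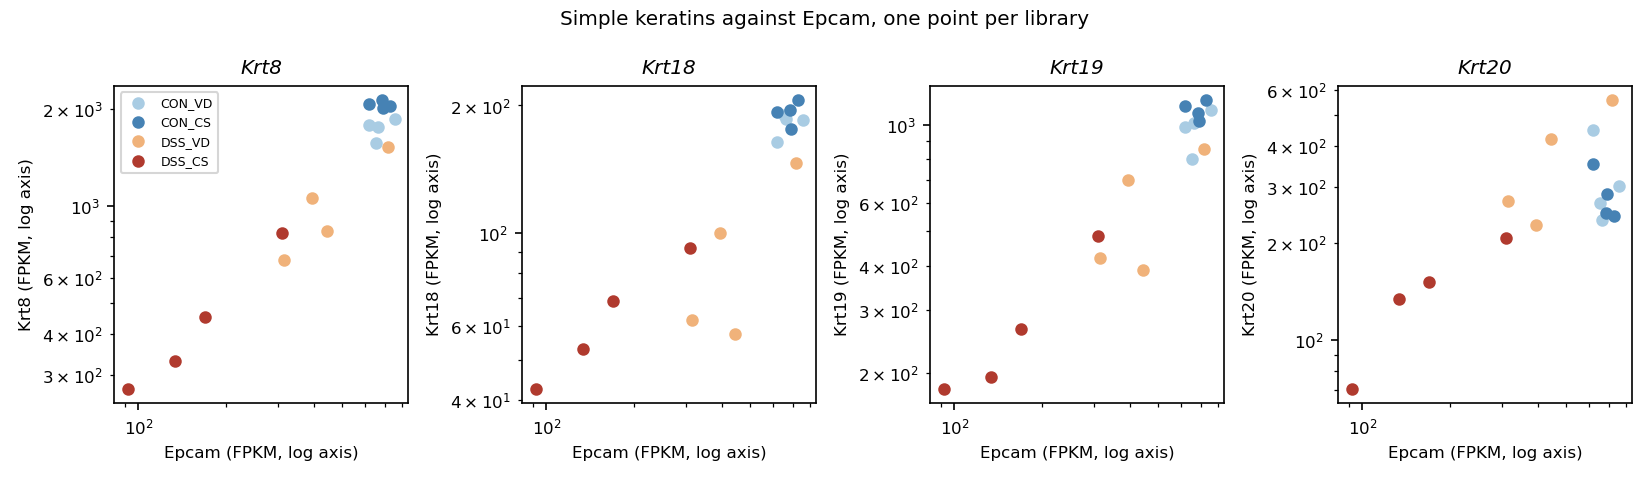
FPKM of Krt8, Krt18, Krt19 and Krt20 (vertical log axes) against FPKM of Epcam (horizontal log axis), 1 point per library and colour by group. The DSS_CS libraries lie at the lower left, with Epcam from 91.9 to 312 FPKM; Krt20 in DSS_VD lies from 227 to 555 FPKM, across its water levels.

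The hair keratins Krt36, Krt84 and Krt90 rose in both kinds of mice, where 24% and 34.4% of all genes tested were higher; 16 of the 20 hair keratins were too low for any test, and Krt84 in VD mice and Krt90 in both were tested only because of their DSS libraries. Krt36, a type I hair keratin (ENSMUSG00000020916, chr11:100102007-100105626), was low in water. Krt36 measured 0.305, 0.537, 1.08 and 2.04 FPKM in CON_VD, 2.88, 1.72, 1.13 and 0.962 in CON_CS, 6.74, 14.1, 10.3 and 9.31 in DSS_VD and 7.67, 4.08, 5.15 and 3.58 in DSS_CS. No DSS library overlapped its water group, and Krt36 rose by 2.52 ± 0.28 (SE) on the log2 scale in VD mice (limma adjusted p = 0.000186) and by 1.20 ± 0.26 in CS mice (limma adjusted p = 0.00324). Its value in CS mice was 1.56 without the 3 libraries with Pbsn (limma adjusted p = 0.00723). Krt90 (ENSMUSG00000048699, chr15:101552356-101562950) is a type II keratin gene that lies among the hair keratins on chromosome 15. Krt90 measured 0.0581, 0, 0.0353 and 0 FPKM in CON_VD, 0.0291, 0, 0 and 0.0348 in CON_CS, 2.37, 24.9, 10.8 and 42.6 in DSS_VD and 23.2, 7.92, 5.11 and 5.31 in DSS_CS. It was at or near 0 in all 8 water libraries and at 2.37 FPKM or more in all 8 DSS libraries; DSS_VD replicate 4 was the highest of all. The log2 differences of Krt90 were 3.83 ± 0.66 in VD mice (limma adjusted p = 0.00156) and 3.23 ± 0.39 in CS mice (limma adjusted p = 0.000112).

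Krt84 (ENSMUSG00000044294, chr15:101525026-101532820), a type II hair keratin also known from the filiform papillae of the tongue, lies near Krt90. Krt84 measured 0.0385, 0.319, 0.480 and 0.342 FPKM in CON_VD, 1.23, 0.771, 0.870 and 0.664 in CON_CS, 2.48, 5.26, 4.98 and 13.5 in DSS_VD and 7.49, 2.95, 1.03 and 2.29 in DSS_CS. DSS_VD did not overlap CON_VD, whereas replicate 3 of DSS_CS lay within the CON_CS range. Krt84 rose by 2.36 ± 0.37 (SE) on the log2 scale in VD mice (limma adjusted p = 0.000907) and by 1.05 ± 0.37 in CS mice (limma adjusted p = 0.0359). The latter was above the threshold without any 1 of the 4 CON_CS libraries and without DSS_CS replicate 2 or 4, at most 0.0848. Krt87, the remaining hair keratin, had means of 0.871, 0.942, 0.753 and 1.30 FPKM in CON_VD, CON_CS, DSS_VD and DSS_CS and no call.

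Among squamous keratins the response was mixed. Krt14, the basal type I keratin, differed in VD mice. Krt14 measured 0.895, 0.534, 0.972 and 0.558 FPKM in CON_VD, 2.38, 1.70, 2.86 and 2.94 in CON_CS, 5.45, 9.36, 2.20 and 3.67 in DSS_VD and 12.7, 6.44, 2.03 and 2.73 in DSS_CS. DSS_VD lay above CON_VD in every library, and the CS groups overlapped; Krt14 rose by 1.70 ± 0.31 (SE) on the log2 scale in VD mice (limma adjusted p = 0.00225), and the difference in CS mice was 0.76 ± 0.43 (limma adjusted p = 0.156). Krt6b, a type II keratin of wounded skin, was listed at 0 in all 4 CON_VD libraries. Krt6b measured 0, 0, 0 and 0 FPKM in CON_VD, 0.0287, 0.155, 0 and 0 in CON_CS, 1.45, 2.79, 2.27 and 23.04 in DSS_VD and 1.86, 0.734, 0.187 and 0.235 in DSS_CS. Replicate 4 of DSS_VD was far above the other 3; Krt6b was higher under DSS in VD mice (limma adjusted p = 0.0129), no fold is given against a group at 0, and it was too low for a test in CS mice. Its near-copy Krt6a, which shares 97.6% of its coding bases, had the same leading library, at 7.26 FPKM, and was too low for any test.

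Krt17, a type I keratin that pairs with Krt6 in wounded skin, went the other way. Its mean was 4.26 ± 2.57 FPKM (SD, n = 4) in CON_VD, 1.88 ± 0.550 in CON_CS, 0.502 ± 0.268 in DSS_VD and 0.503 ± 0.239 in DSS_CS. It fell by 1.67 ± 0.35 (SE) on the log2 scale in VD mice (limma adjusted p = 0.00476) and by 0.93 ± 0.16 in CS mice (limma adjusted p = 0.000919). Krt10, the type I keratin of upper epidermal layers, fell by 0.41 ± 0.11 and 0.33 ± 0.11 (limma adjusted p = 0.0184 and 0.0266) from 1.73 ± 0.275 and 1.94 ± 0.241 FPKM. Its call was lost in VD mice without CON_VD or DSS_VD replicate 3 (at most 0.0603), and in CS mice without CON_CS replicate 2 or 4 or DSS_CS replicate 3 or 4 (at most 0.0732). Without the 3 libraries with Pbsn the difference of Krt10 in CS mice was -0.22 (limma adjusted p = 0.234).

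Krt13, Krt80 and Krt12 were called in CS mice. Krt13, a type I keratin of moist squamous linings, rose by 1.48 ± 0.29 (SE) on the log2 scale, from 0.535 ± 0.437 to 3.41 ± 1.92 FPKM (limma adjusted p = 0.00194). It was not tested in VD mice, where 3 of the 4 DSS libraries and no water library reached 1 FPKM; DSS_VD held 0.842, 6.74, 3.13 and 4.99 FPKM against 0.183 to 0.469 in CON_VD. Krt80, a type II keratin, rose by 1.30 ± 0.09 in CS mice (limma adjusted p = 4.16e-06), from 0.177 to 0.308 FPKM in CON_CS to 1.78 to 2.36 in DSS_CS. It was tested there only because of its DSS libraries, so meeting the filter already separated its ranges. Krt80 was not tested in VD mice, where DSS_VD held 0.977 to 1.39 FPKM against 0.161 to 0.350 in CON_VD. Krt12, a type I keratin known from the cornea, fell by 0.91 ± 0.19 in CS mice (limma adjusted p = 0.00249), from 1.78 ± 0.584 to 0.476 ± 0.296 FPKM; its difference in VD mice was 0.47 ± 0.27 (limma adjusted p = 0.208).

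**Figure D3:**
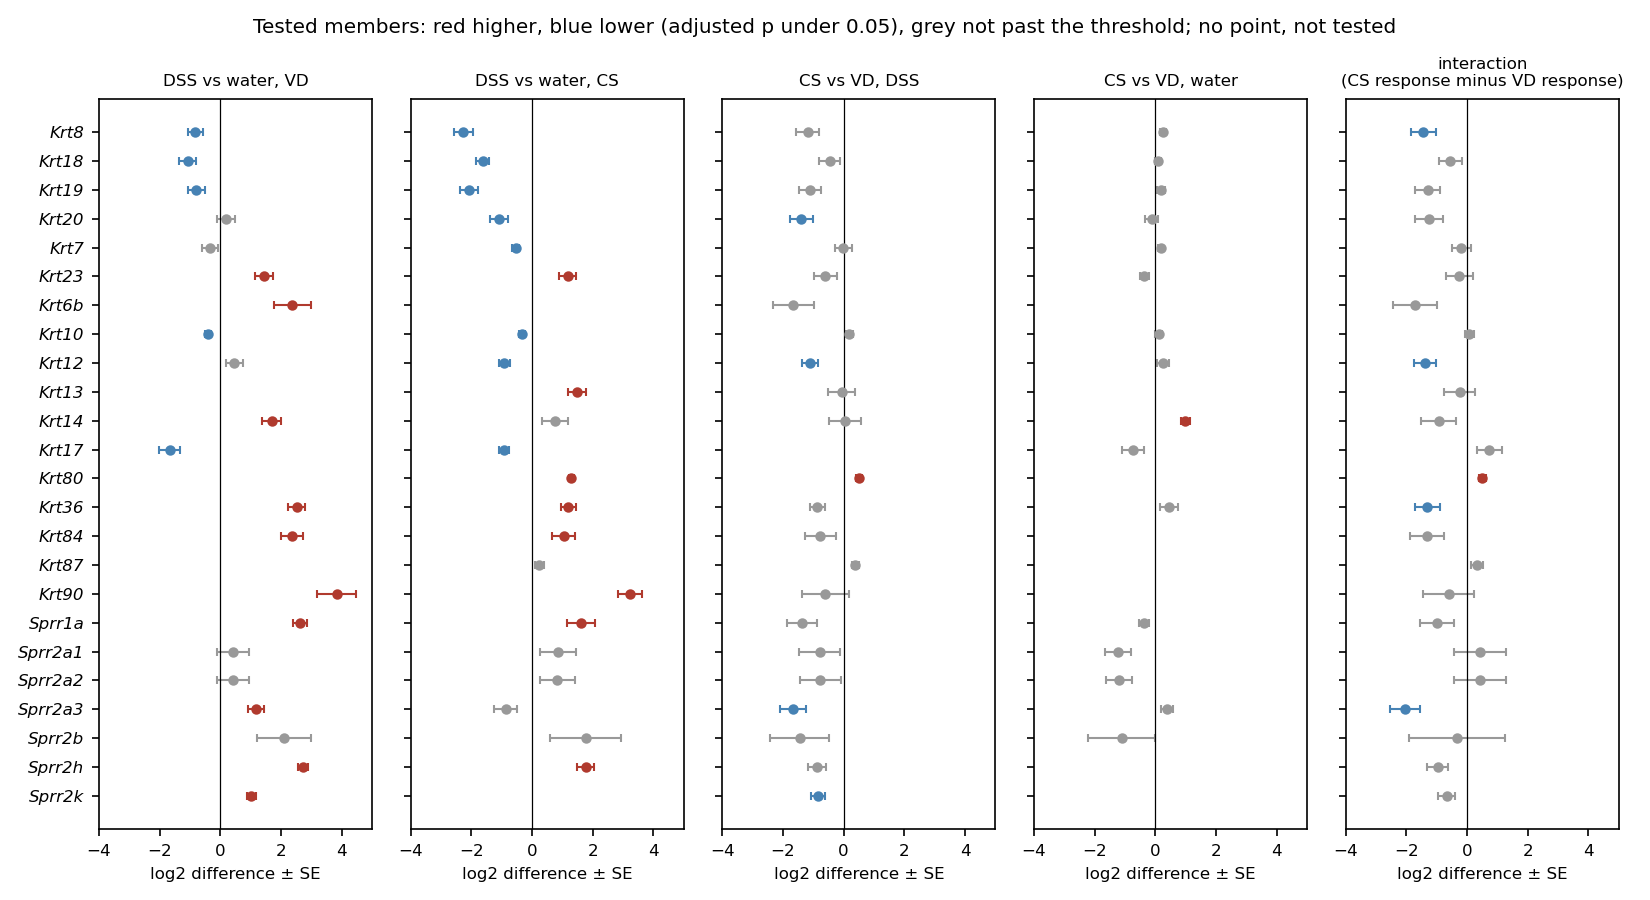
Log2 difference with its SE for each of the 24 members tested in at least 1 comparison, in 5 panels: DSS against water in VD and in CS mice, CS against VD under DSS and in water, and the difference between the 2 DSS responses. Red marks members higher and blue members lower at an adjusted p under 0.05; a member without a point was not tested.

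Simple and squamous keratins were compared as sums. Krt8, Krt18 and Krt20 together held 2027 to 2393 FPKM in CON_VD, 2478 to 2623 in CON_CS, 1010 to 2227 in DSS_VD and 384 to 1124 in DSS_CS. The 19 squamous keratins together held 5.11 to 13.1, 8.71 to 12.5, 13.1 to 44.0 and 9.06 to 28.2 FPKM in the same groups. The squamous share of both sums was 0.252% to 0.553% in CON_VD, 0.338% to 0.475% in CON_CS, 1.02% to 3.07% in DSS_VD and 1.72% to 3.74% in DSS_CS. Every DSS library was above every water library on that share, and simple keratins remained at least 25.7 times the squamous sum in every library. The 20 hair keratins summed to 1.22 to 5.44 FPKM in water, 13.0 to 66.5 in DSS_VD and 12.7 to 39.9 in DSS_CS. They passed the squamous sum in 7 of the 8 DSS libraries and in no water library. In DSS_CS replicate 4 the hair and squamous sums were nearly equal, at 12.74 and 12.71 FPKM. Krt90 alone made up 52.8% of the hair sum of group means in DSS_VD and 49.96% in DSS_CS. The count therefore leans on placing Krt90 among the hair keratins, and the comparison without Krt90 was not made. The leading squamous keratin was Krt17 in CON_VD (45.4% of the squamous sum of group means), Krt14 in CON_CS (24.1%), Krt6b in DSS_VD (30.3%) and Krt14 in DSS_CS (36.8%). The lead of Krt6b came from DSS_VD replicate 4: without it the mean of Krt6b was 2.17 FPKM, and Krt14 led with 5.67 FPKM (31.7%).

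**Figure D4:**
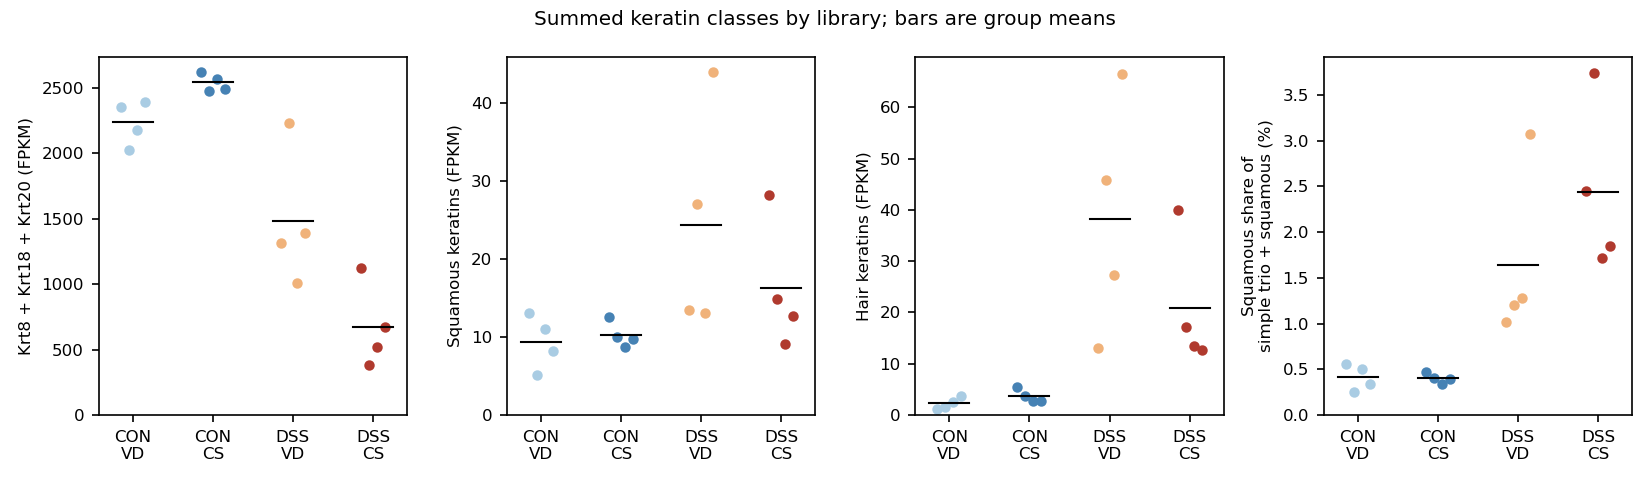
Summed FPKM of Krt8, Krt18 and Krt20, of the 19 squamous keratins and of the 20 hair keratins, and the squamous share in percent of the first 2 sums, by library (points) with group means (bars). The simple sum reaches down to 384 FPKM in DSS_CS; the squamous share is 0.553% or less in water and 1.02% or more under DSS.

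Squamous markers other than keratins were examined beside these sums. Of 10 such markers, 5 were under 1 FPKM in all 16 libraries. Their sum was 8.21 to 15.02 FPKM in water, 36.6 to 57.0 in DSS_VD and 31.5 to 51.5 in DSS_CS, and most of it under DSS was Ly6d, at 43.7 ± 10.9 FPKM in DSS_VD and 34.1 ± 9.94 in DSS_CS. Of 2 tested in VD mice, 1 was higher and 1 lower under DSS, and of 3 tested in CS mice, 2 were higher and 1 lower. Over all genes tested 24% were higher and 17% lower in VD mice, and 34.4% and 25.9% in CS mice. Ly6d rose in both (limma adjusted p = 0.000194 and 5.30e-06). Pkp1, a plaque protein of desmosomes, fell from 5.95 ± 2.23 to 2.14 ± 1.39 FPKM in VD mice and from 7.26 ± 1.41 to 1.15 ± 0.920 in CS mice (limma adjusted p = 0.0196 and 0.000243). Sbsn, suprabasin, rose in CS mice from 0.342 ± 0.105 to 1.82 ± 0.419 FPKM (limma adjusted p = 8.54e-05). Sbsn was tested there only because of its DSS libraries. Dsg3, a desmosomal cadherin of squamous epithelium, was too low for a test against water; its means were 0.0251 and 0.0598 FPKM in CON_VD and CON_CS, 1.74 in DSS_VD and 0.483 in DSS_CS. Krtdap and Lgals7, which mark stratified epithelium, reached at most 0.976 and 1.72 FPKM in any library. The part of squamous tissue in the keratin values was not tested.

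Of the SPRR genes, Sprr1a, Sprr2a3, Sprr2h and Sprr2k were higher under DSS in VD mice (4 of 7 tested), and Sprr1a and Sprr2h in CS mice (2 of 6); none was lower. Over all genes 24% and 34.4% were higher, so the CS count is at the background. With Sprr2a1 and Sprr2a2 taken as 1 the numbers tested were 6 and 5, and Sprr2h in both and Sprr2k in VD mice were tested only because of their DSS libraries. Sprr1a, a cross-linked envelope precursor, was low and even in CON_VD. Sprr1a measured 3.46, 3.48, 3.36 and 3.63 FPKM in CON_VD, 3.94, 1.90, 2.12 and 2.14 in CON_CS, 17.6, 45.9, 24.9 and 24.7 in DSS_VD and 24.8, 3.59, 11.7 and 7.45 in DSS_CS. DSS_VD lay above all water libraries, while DSS_CS replicate 2 lay within the range of CON_CS. Sprr1a rose by 2.62 ± 0.24 (SE) on the log2 scale in VD mice (limma adjusted p = 8.00e-05) and by 1.62 ± 0.46 in CS mice (limma adjusted p = 0.0140; 1.84 with an adjusted p of 0.0805 without the 3 libraries with Pbsn). Sprr2h measured 0.163, 0, 0.0638 and 0 FPKM in CON_VD, 0, 0.0984, 0.214 and 0.173 in CON_CS, 5.24, 7.47, 7.60 and 4.37 in DSS_VD and 4.95, 1.11, 2.87 and 3.37 in DSS_CS. No DSS library of Sprr2h, another envelope precursor, overlapped water, and it rose by 2.74 ± 0.17 in VD mice (limma adjusted p = 1.29e-05) and by 1.77 ± 0.27 in CS mice (limma adjusted p = 0.000494).

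Sprr2a1, Sprr2a2 and Sprr2a3 carried most SPRR transcript. Sprr2a2 measured 675, 541, 510.4 and 402 FPKM in CON_VD, 137, 612, 165 and 194 in CON_CS, 1431, 1273, 228 and 569 in DSS_VD and 862, 160.5, 447 and 443 in DSS_CS. Groups overlapped in every comparison, and the log2 differences of Sprr2a2 were 0.41 ± 0.53 (SE) in VD mice (limma adjusted p = 0.564) and 0.83 ± 0.59 in CS mice (limma adjusted p = 0.249). Sprr2a1 had 0.41 ± 0.53 and 0.85 ± 0.59 (limma adjusted p = 0.565 and 0.249). Sprr2a3 measured 223, 186, 168 and 114 FPKM in CON_VD, 183, 213, 224 and 262 in CON_CS, 444, 536, 344 and 262 in DSS_VD and 252, 56.7, 121 and 119 in DSS_CS. In VD mice the water and DSS ranges of Sprr2a3 did not overlap and it rose by 1.19 ± 0.27 (limma adjusted p = 0.00660); in CS mice they overlapped and the difference was -0.86 ± 0.38 (limma adjusted p = 0.0797).

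The copies split the libraries in another way. The ratio of Sprr2a3 to Sprr2a1 was 0.267 to 0.463 in 12 libraries and 1.38 to 1.53 in the other 4, which were CON_CS replicates 1, 3 and 4 and DSS_VD replicate 3. In those 4 libraries Sprr2a1 was at 133, 159.8, 187 and 224 FPKM. The lowest of the other 12 was DSS_CS replicate 2, at 153 FPKM, so only CON_CS replicate 1 lay below their range. Sprr2a3 was within the range of the other libraries in all 4. The library with the low ratio in CON_CS, replicate 2, held 608 FPKM of Sprr2a1.

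Sprr2b varied widely between libraries of 1 group. Sprr2b measured 34.4, 1.01, 4.17 and 30.9 FPKM in CON_VD, 4.63, 24.3, 0.769 and 1.12 in CON_CS, 70.5, 67.2, 18.8 and 39.5 in DSS_VD and 44.6, 0.804, 31.2 and 25.8 in DSS_CS. The highest library was 34.0, 31.6, 3.75 and 55.5 times the lowest in CON_VD, CON_CS, DSS_VD and DSS_CS, against 1.08 to 6.91 times for Sprr1a. Its log2 differences were 2.10 ± 0.90 (SE) in VD mice and 1.76 ± 1.15 in CS mice (limma adjusted p = 0.0934 and 0.219). Sprr2k rose by 1.03 ± 0.16 in VD mice (limma adjusted p = 0.000885), from 0.418 ± 0.155 to 1.92 ± 0.585 FPKM. Sprr2i was listed at 0 in all 8 water libraries and held up to 1.59 FPKM under DSS, and Sprr2d, also at 0 in all 8, held up to 2.20 FPKM.

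**Figure D5:**
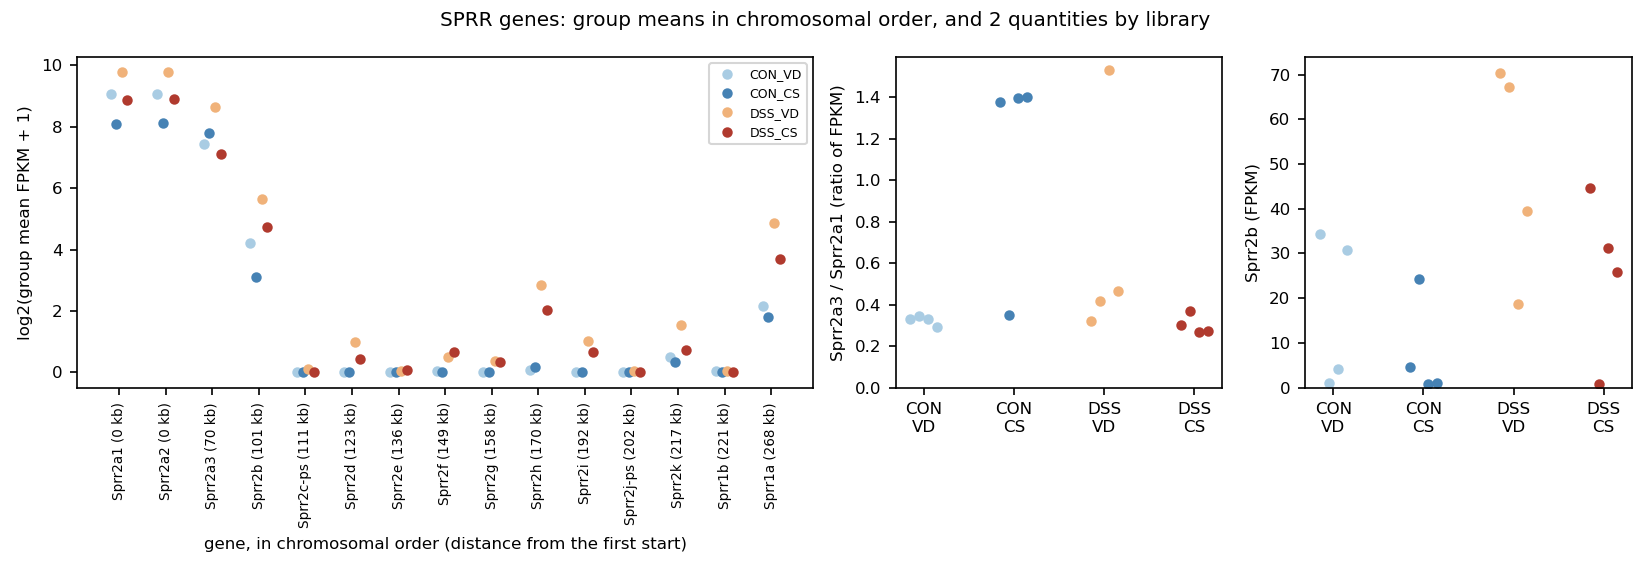
Left, log2 of the group mean FPKM + 1 of the 15 SPRR genes in their order on chromosome 3, with the distance of each start from the first in kb. Middle and right, the ratio of Sprr2a3 to Sprr2a1 and the FPKM of Sprr2b by library; 4 libraries have a ratio of 1.38 or more and the other 12 of 0.463 or less.

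Without DSS, 1 member differed by birth mode. Of 16 members tested that was 1 call between CS and VD mice, against 0.407% of the 13275 genes tested (0.181% higher and 0.226% lower in CS mice). It was Krt14, higher in every CON_CS than in every CON_VD library (1.70 to 2.94 against 0.534 to 0.972 FPKM), by 0.99 ± 0.15 (SE) on the log2 scale (limma adjusted p = 0.0363). Krt14 was tested only because of its CON_CS libraries, so meeting the filter already separated its ranges. The adjusted p was above 0.05, and at most 0.103, without CON_VD replicate 1, 2 or 3, and without any 1 CON_CS library Krt14 no longer met the filter. Krt8 was also higher in every CON_CS than in every CON_VD library, so that ranges did not overlap in 2 of the 16 members against 10.7% of all genes; it differed by 0.25 ± 0.11 (limma adjusted p = 0.256). Krt18 differed by 0.09 ± 0.09 and Krt20 by -0.12 ± 0.21 (limma adjusted p = 0.611 and 0.765), the latter 0.06 without CON_VD replicate 4. Without CON_CS replicate 2 the call was the shared measurement of Sprr2a1 and Sprr2a2, lower in CS mice.

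Under DSS, CS mice had less Krt20, Krt12, Sprr2a3 and Sprr2k and more Krt80 than VD mice. These were 5 of 23 members tested, against 13.4% of 14313 genes (7.89% higher and 5.54% lower). Krt20 was lower by a log2 difference of -1.39 ± 0.38 (SE; limma adjusted p = 0.0469), Krt12 by -1.11 ± 0.27 (0.0372), Sprr2a3 by -1.67 ± 0.42 (0.0401) and Sprr2k by -0.85 ± 0.24 (0.0480), and Krt80 was higher by 0.51 ± 0.10 (0.0319). The ranges of the 2 groups did not overlap in any of the 5, nor in Krt87, which was not called. They did not overlap in 22.5% of all genes tested. Krt12 was tested only because of its DSS_VD libraries (1.12 to 4.17 FPKM, against 0.750 or less in DSS_CS). Krt87 was tested only because of its DSS_CS libraries (1.03 to 1.68 FPKM, against 0.827 or less in DSS_VD). For both, meeting the filter already separated the ranges. Krt8 differed by -1.19 ± 0.38 (limma adjusted p = 0.0680), Krt19 by -1.11 ± 0.37 (0.0790), Krt18 by -0.46 ± 0.34 (0.386) and Sprr1a by -1.38 ± 0.50 (0.0970). These calls rested on few libraries: none remained without DSS_VD replicate 1, 2 or 4 or DSS_CS replicate 2 or 3, 1 remained without DSS_VD replicate 3 or DSS_CS replicate 4, and 10 were made without DSS_CS replicate 1. None was left without the 2 DSS_CS libraries with Pbsn, where 5 members had an unadjusted p under 0.05 and the log2 differences were -1.51 for Krt20, -1.67 for Sprr2a3 and 0.59 for Krt80.

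The 2 DSS responses were compared in 1 fit of all 16 libraries. Of 24 members tested, 5 responded differently in CS and VD mice, against 13.2% of 15233 genes (6.68% with a positive and 6.55% with a negative difference). The response in CS minus that in VD mice was -2.04 ± 0.50 (SE) on the log2 scale for Sprr2a3 (limma adjusted p = 0.0196), -1.44 ± 0.41 for Krt8 (0.0352), -1.38 ± 0.36 for Krt12 (0.0241), -1.32 ± 0.41 for Krt36 (0.0472) and 0.51 ± 0.13 for Krt80 (0.0235). Krt19 differed by -1.29 ± 0.41 (limma adjusted p = 0.0512), Krt20 by -1.27 ± 0.46 (0.0781) and Krt18 by -0.55 ± 0.37 (0.339). Epcam differed by -1.49 in the same fit (limma adjusted p = 0.0329). Leaving out 1 library at a time, Sprr2a3 and Krt80 passed in 16 of 16 fits and Krt12 in 15 (0.0519 without DSS_CS replicate 2), but Krt8 in 5 (at most 0.0723) and Krt36 in 3 (at most 0.0945). Without the 3 libraries with Pbsn none of the 5 passed: the values were -2.13 for Sprr2a3 (limma adjusted p = 0.0728), 0.59 for Krt80 (0.0577), -1.31 for Krt12 (0.0896), -1.29 for Krt8 (0.147) and -0.96 for Krt36 (0.220), with 6 members at an unadjusted p under 0.05.

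Other genes of the cornified envelope did not move as a block with the SPRR genes. Of 8 tested, 2 were higher and 4 lower under DSS in VD mice, and 3 higher and 4 lower in CS mice; the shares over all genes, 24% and 17% in VD and 34.4% and 25.9% in CS mice, also stand beside the counts of the lists that follow. Tgm1, the membrane-bound transglutaminase of keratinocytes, rose from 0.121 ± 0.0922 to 2.59 ± 0.790 FPKM in VD mice and from 0.143 ± 0.0776 to 4.19 ± 0.811 in CS mice (limma adjusted p = 0.000120 and 1.82e-06). In both kinds of mice Tgm1 was tested only because of its DSS libraries. Tgm3, another transglutaminase, fell from 156 ± 38.9 to 38.3 ± 26.8 and from 115 ± 34.6 to 5.28 ± 3.13 FPKM (limma adjusted p = 0.00337 and 3.58e-05). Casp14, a protease of cornifying skin, fell from 13.3 ± 7.37 to 2.46 ± 1.48 FPKM in VD mice and from 16.7 ± 3.72 to 0.496 ± 0.495 in CS mice (limma adjusted p = 0.00382 and 3.70e-06). Ivl and Flg, the envelope proteins involucrin and filaggrin, were listed at 0 in all 16 libraries.

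Desmosome and linker genes, which anchor keratin filaments, were mostly not called in VD mice (1 higher and 2 lower of 14 tested) and mostly lower in CS mice (3 higher and 9 lower of 14). Eppk1, the keratin linker epiplakin, fell in both, from 6.81 ± 1.33 to 1.49 ± 0.669 FPKM and from 7.02 ± 1.58 to 0.678 ± 0.480 (limma adjusted p = 0.000299 and 2.13e-05). Dsp, the linker desmoplakin, fell in CS mice from 72.7 ± 8.03 to 15.6 ± 9.40 FPKM (limma adjusted p = 0.000274); its log2 difference in VD mice was -0.51 ± 0.25 (SE; limma adjusted p = 0.134). Under DSS, 3 of 15 tested were lower in CS than in VD mice, against 5.54% of all genes tested, and 12 were not called. The 3 were Dsg2, Dsc2 and Pkp3, all parts of the desmosome, and their calls are given with all libraries only.

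Of 14 transcription factors of squamous differentiation, 6 could be tested; 4 of these were lower under DSS in VD mice and all 6 in CS mice. The other 8 reached at most 1.32 FPKM in any library and have no test. Of these, 3 are named after their values were seen: Sox2 ran from 0.0130 to 0.0912 FPKM in CON_CS and from 0.348 to 0.833 in DSS_CS, Tfap2a from 0 to 0.0631 and from 0.150 to 0.369 in the same groups, and Grhl3 averaged 0.259 FPKM in CON_VD and 0.896 in DSS_VD. They were picked from the 8, each is shown for CS or VD mice only, and precision at these levels is unknown. They therefore do not describe the list. Klf4, which also acts in goblet cells and surface colonocytes, fell from 147 ± 21.9 to 66.2 ± 18.4 FPKM in VD mice and from 129 ± 15.7 to 25.3 ± 6.23 in CS mice (limma adjusted p = 0.00184 and 5.13e-06). Around the SPRR genes, the epidermal differentiation complex held 68 genes in the table, 53 of them not SPRR. Of 11 of these tested in each comparison, 6 were higher and 1 lower in VD mice, and 6 higher and 3 lower in CS mice. The calprotectin genes S100a8 and S100a9, abundant in neutrophils, stood at 89.7 ± 57.5 and 174 ± 121 FPKM in DSS_VD and 272 ± 67.9 and 628 ± 131 in DSS_CS, against means of 0.171 or less in both water groups. S100a8 and S100a9 were tested only because of their DSS libraries.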

How the data were processed

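RNA-seq was made from mouse colon, 4 libraries in each of 4 groups; Trizol was used for the extraction of total RNA, as the labels' protocols state. The authors deposited 1 table of FPKM for 39328 genes in 16 libraries. The submitters' processing notes name cutadapt, FastQC and the build GRCm38 without versions; no name of an aligner, quantifier or annotation was found, so these count as not given in the sources used here. Identifiers were matched to symbols for 39181 genes and not for 147; positions are from GENCODE M21 (GRCm38). Low values gave no whole-read steps, so depth is unknown and no counting interval is given.

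The values were analysed as log2(FPKM + 1) with limma 3.58.1 (R 4.3.3; empirical Bayes with an intensity trend). Genes with at least 1 FPKM in at least 4 fitted libraries were tested, and p was adjusted by Benjamini-Hochberg over all of them; 0.05 was the threshold. Fits of 2 groups used only the 8 libraries compared, and the difference of the 2 DSS responses used all 16. The fits were tested on simulated data. Other pseudocounts, filters, scaling, designs and left-out libraries were tried, and 2 other squamous sums were added after seeing the data.

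Every member with a group mean of 1 FPKM or more was named; Krt8, Krt18, Krt20 and up to 12 more of smallest p with a mean of 5 FPKM or more have every library's value, and of each other gene list up to 4 of smallest p per comparison could be named. The members and lists were chosen with earlier results of these data known. Promoter windows were taken from RefSeq, and no protein sequence was used here. Figures were drawn with matplotlib 3.10.9.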

Additional observations from a re-analysis of the deposited data

Results flagged for a closer look

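Of 60 groups of 4 libraries checked over 15 members, 2 held a library far from the other 3; chance gives about 1 in 20. Krt18 was at 163 FPKM in CON_VD replicate 4, below the other 3, with a gap of 0.839 of the group's range. Sprr1a was at 3.94 FPKM in CON_CS replicate 1, one of the libraries with Pbsn, above the other 3, with a gap of 0.850 of the range.

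The response to DSS differed between CS and VD mice (CS minus VD, log2 scale, limma) for Sprr2a3 (-2.04), Krt80 (0.51), Krt12 (-1.38), Krt8 (-1.44) and Krt36 (-1.32). Krt8 rose in none of the 8 DSS libraries above its water range, so its difference is in the size of the decrease, while Sprr2a3 was higher under DSS in VD mice and not called in CS mice.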

How the results depend on the processing

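The number of members called was compared under each alternative. With a filter of 5 FPKM, which tests fewer genes, it was 6 in VD mice (15 as reported), 6 in CS mice (16), 3 for CS against VD under DSS (5) and 0 in water (1). Requiring a fold of at least 2 gave 5, 4, 0, 0 and, for the difference of responses, 0 (5 as reported). With no filter it was 0 for CS against VD under DSS (13 at an unadjusted p under 0.05), 0 in water (6) and 2 for the difference of responses. Median-of-ratios scaling gave 3 and one fit on all 4 groups 11 for CS against VD under DSS, and that fit 0 in water (2 unadjusted). A pseudocount of 0.1 gave 3 for the difference of responses. Without the libraries with Pbsn the counts were 5 in CS mice, 0 for CS against VD under DSS (5 unadjusted), 0 in water (1) and 0 for the difference (6). With 1 library left out at a time they ran from 6 to 13 in VD mice, 11 to 14 in CS mice, 0 to 10 for CS against VD under DSS, 0 to 2 in water (the 2 being the copies Sprr2a1 and Sprr2a2) and 2 to 11 for the difference of responses, the highest without DSS_CS replicate 1. Except for fewer genes or samples tested, the cause was not tested.

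Replicate numbers are shared by the groups, but same-numbered libraries did not deviate together across genes (r from -0.278 to 0.128, median 0.000746). The labels do not say whether the numbers pair animals, and a block that touches few genes would not show in these correlations. With the number as a replicate block, 13 members were called in VD mice, 16 in CS mice, 0 for CS against VD under DSS (10 unadjusted), 0 in water (4 unadjusted) and 3 for the difference of responses.

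Krt20 changed direction, without a call, to -0.04 for DSS in VD mice without DSS_VD replicate 2 (range -0.04 to 0.39) and to 0.06 for CS against VD in water without CON_VD replicate 4 (range -0.24 to 0.06). The squamous share in CON_CS was 0.280% with all 6 simple keratins and 0.332% without Krt12, against 0.401%. Krt8 and Krt19 in CS mice, and Krt36, Krt84, Krt90, Sprr1a and Sprr2h in VD mice, kept direction and call in each alternative in which they were tested. Depth is unknown, so values under 1 FPKM are of unknown precision, and 4 libraries a group limit what can be called.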

Other observations

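Type I and type II simple keratins are made in pairs, and their summed FPKM were compared as a description. The ratio of type I (Krt18, Krt19, Krt20 and Krt23) to type II (Krt7 and Krt8) was 0.794 to 0.893 in CON_VD, 0.711 to 0.801 in CON_CS, 0.963 to 1.11 in DSS_VD and 0.947 to 1.13 in DSS_CS. All 8 DSS libraries were above all 8 water libraries, and within the ratio Krt20 took 9.74% and 7.72% of the simple keratin sum in CON_VD and CON_CS against 17.6% and 14.6% in DSS_VD and DSS_CS. Krt222, a type I keratin-like gene outside the other classes, measured at most 0.216 FPKM in water and 0.250 to 0.794 FPKM in all 8 DSS libraries, below the level at which it could be tested.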
